A study of Mus musculus with 2 samples.

Results

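The expression of 10 genes that encode neuropeptide precursors (Pmch, Npy, Sst, Tac1, Penk, Cck, Gal, Trh, Avp and Oxt) was examined in brain tissue of the E18.5 mouse. They were taken by name from the 32285 genes of the RNA matrix, and all 10 had at least 8 UMIs (unique molecular identifiers, each counted as 1 captured RNA molecule). The tissue was of the C57BL/6 strain with a homozygous Ctcf mutation, the R567W substitution introduced by CRISPR/Cas9. It was profiled by SPARC-seq, which gave 1 RNA library and 1 chromatin accessibility (ATAC) library over the same barcodes. Tissue with intact Ctcf was not analysed here by this assay, so no value below is a response to the mutation, and the labels do not say whether 1 embryo or a pool was used.

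Neuropeptides are made as long precursors, cut by prohormone convertases in dense-core granules and released to act on G protein-coupled receptors. Melanin-concentrating hormone (Pmch) marks neurons of the lateral hypothalamus. Vasopressin (Avp) and oxytocin (Oxt) are made by large hypothalamic neurons whose axons end in the posterior pituitary, and thyrotropin-releasing hormone (Trh) drives the thyroid axis from the same nuclei. Galanin (Gal) is made in several hypothalamic groups. Somatostatin (Sst), neuropeptide Y (Npy) and cholecystokinin (Cck) are widespread in cortical neurons, many of them interneurons, and proenkephalin (Penk) and the substance P precursor (Tac1) are best known from projection neurons of the striatum.

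Each barcode joined a first and a second segment of 8 bases, and both were drawn from the same 50 sequences. Barcodes were therefore read as spots of a grid, and all spots that share 1 segment as a strip. Strips are numbered by the alphabetical order of their segment, which is no position in the tissue. The second segments of the strips that held most Pmch and Avp are shown, since these strips carry the main result.
strip 34, rich in Pmch: ggtactgc
strip 14, rich in Avp: caaccgct
strip 33, rich in Avp: ggctgagc
A spot can hold several cells of different types, so fewer cells with a peptide and less RNA per cell cannot be told apart. After filtering, all but 1 of the spots in the matrix were kept, 1992, in 50 first-segment and 48 second-segment strips, with 8711132 UMIs in all and a median of 4157 per spot. The 48 second-segment strips held between 2 and 50 kept spots each.

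The 10 genes together had 1240 UMIs, 142 counts per 1000000 UMIs (CPM; 95% Poisson interval 134.5 to 150.5), and 887 spots (44.5%) had at least 1 of them. Sst, whose product inhibits hormone and transmitter release, gave 556 UMIs (63.8 CPM, 58.6 to 69.4) in 445 spots. Cck gave 180 UMIs (20.7 CPM, 17.8 to 23.9) in 164 spots. Avp, Npy and Pmch lay within each other's intervals, with 121, 116 and 114 UMIs (13.9, 13.3 and 13.1 CPM) in 97, 106 and 96 spots. The other 5 genes stayed under 100 UMIs and were left out of comparisons across genes: Penk had 59 UMIs, Gal 31, Trh 29, Tac1 26 and Oxt 8 (0.918 CPM, 0.396 to 1.81). These are UMIs behind each gene on a scale with no correction for length, and they set how much can be said of it. The intervals here and below cover counting error only, since each assay has 1 library.

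Most spots with one of these genes held 1 UMI of it. Sst had 2 or more UMIs in 93 of its 445 spots, Cck in 12 of 164, Pmch in 11 of 96, Avp in 11 of 97 and Npy in 9 of 106. Penk had a second UMI in 1 of its 58 spots, Gal in 2 of 29 and Trh in 2 of 27, and no spot held more than 1 UMI of Tac1 or Oxt. The highest count in a spot was 5 for Pmch and Sst, 4 for Cck, 3 for Npy and 11 for Avp. The spot with 11 Avp UMIs had 5921 UMIs in all, and no other spot held more than 4 of Avp.

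The promoters of Pmch and Avp, the genes found below to be unevenly spread, and of Sst, the gene with most UMIs, are shown for the 250 bases before the RefSeq start (GRCm38.p6). Capitals mark matches to 5 motifs searched on both strands: TATAAA, TGACGTCA (the cyclic AMP response element), TGANTCA (wider than the AP-1 site, which has C or G at N), CCAAT and CACGTG (an E-box).
Pmch, chr10:88090822-88091071, plus strand: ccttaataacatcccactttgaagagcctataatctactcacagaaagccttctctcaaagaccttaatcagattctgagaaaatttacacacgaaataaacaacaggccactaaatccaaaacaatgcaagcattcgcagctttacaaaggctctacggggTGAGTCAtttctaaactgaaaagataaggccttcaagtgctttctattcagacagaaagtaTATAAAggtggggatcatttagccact
Avp, chr2:130582589-130582838, minus strand: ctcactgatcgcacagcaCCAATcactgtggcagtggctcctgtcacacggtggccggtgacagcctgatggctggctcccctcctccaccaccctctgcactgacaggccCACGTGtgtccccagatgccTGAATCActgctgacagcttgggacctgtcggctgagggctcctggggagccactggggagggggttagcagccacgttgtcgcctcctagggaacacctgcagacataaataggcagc
Sst, chr16:23890845-23891094, minus strand: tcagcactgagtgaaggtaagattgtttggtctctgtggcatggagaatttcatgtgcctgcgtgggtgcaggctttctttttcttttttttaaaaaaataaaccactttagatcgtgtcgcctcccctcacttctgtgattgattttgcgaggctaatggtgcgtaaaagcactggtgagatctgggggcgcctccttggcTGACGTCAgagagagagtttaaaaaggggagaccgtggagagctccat

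Promoters of 9 of the 10 genes were in the sequence table, Penk being the other. TATAAA was found in 1 of the 9, Pmch, 27 bases before its start, and in 12.4% of 32851 promoters. TGACGTCA was found in 1, Sst, 48 bases before its start, and in 1.55% of promoters. TGANTCA was found in Pmch and Avp and in 6.75% of promoters, CCAAT in Npy, Tac1 and Avp and in 33.8%, and CACGTG in Tac1, Cck and Avp and in 6.02%. The Pmch promoter was 38.4% GC and that of Npy 69.2%. A match is a run of letters, not a bound site. The RefSeq start used here lay 34 bases before the GENCODE start of the fragment windows for Avp, and 114 bases after it for Sst.

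Whether a gene was spread evenly over the grid was measured by its excess variance over strips, the variance of its strip counts beyond counting noise relative to its squared mean, given the UMIs of each strip. A gene was called uneven at 0.25 or above. Over second-segment strips Pmch (2.12) and Avp (2.83) were uneven, 2 of the 5 genes with at least 100 UMIs, against a background of 4.37% of 10692 genes and 10.7% of the 2786 genes with 100 to 200 UMIs. The set was chosen with earlier results of these data known, so this count is a description. Pmch lay at the 99.7th and Avp at the 99.8th percentile of the genes tested, and both stayed uneven without their richest strip (1.11 and 2.30) and without their richest spot (1.68 and 2.19). Cck (0.182), Sst (0.136) and Npy (0.117) were not called. The genes under 100 UMIs had values from 0.369 (Penk) to 1.51 (Oxt), which rest on too few UMIs to be called.

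Over first-segment strips Pmch (0.316) and Avp (0.254) had far lower values and Cck (0.281) a higher one, with 3 of 5 called. Of genes with at least 100 UMIs 0.402% were called, and of those with 100 to 200 UMIs 1.29%. These calls rested on single strips or spots. Without the richest strip of each gene none was called (Pmch 0.202, Cck 0.173 and Avp 0.0515), nor without its richest spot (0.187, 0.204 and 0.0621 in the same order). With no filter on spots Avp was at 0.249. The 11-UMI spot lay in first-segment strip 17, which held 12 Avp UMIs in all.

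**Figure D1:**
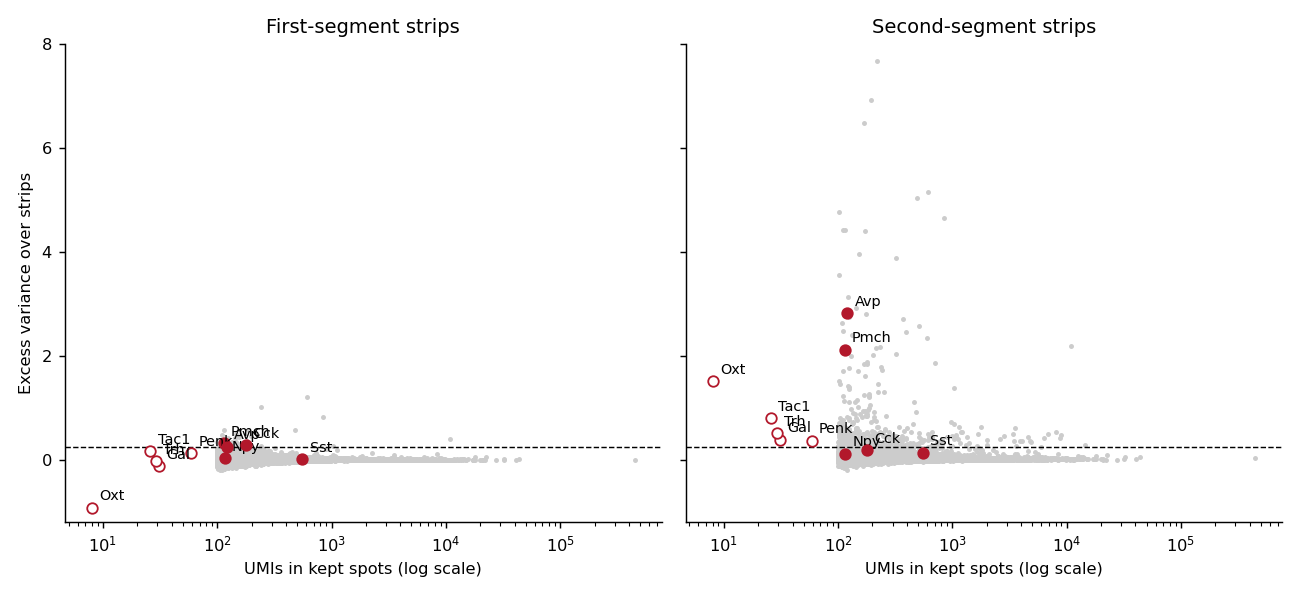
Excess variance over first-segment and second-segment strips (vertical axis, no unit) against UMIs in kept spots (log scale) for all genes with at least 100 UMIs (grey) and the 10 neuropeptide genes (filled red with at least 100 UMIs, open below). The dashed line marks 0.25; over second-segment strips Avp (2.83) and Pmch (2.12) stand above it, while Sst, Cck and Npy lie below.

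Pmch was concentrated in 5 of 48 second-segment strips. A strip was called rich in a gene with at least 5 of its UMIs and at least 2 times its library-wide CPM. How many rich strips other genes have was not computed, so numbers of rich strips, here and below, are descriptions. Over the second-segment strips the level of Pmch ran from 0 to 113 CPM with a median of 7.98, and 18 strips had none. Strip 34 held 24 Pmch UMIs in 14 of its 50 spots (113 CPM, 72.2 to 168), 8.61 times the library-wide level. Strip 23 followed with 10 UMIs (70.5 CPM) and strip 36 with 11 (48.9 CPM). Strips 7 and 27 held 8 and 7 UMIs. The 5 strips together held 60 of the 114 Pmch UMIs (52.6%) and 11.3% of all UMIs. The interval of strip 34 overlapped those of strips 23 (33.8 to 130) and 36 (24.4 to 87.4) and lay wholly above the median strip. Strip 34 was picked as the highest on the same counts, and its interval does not allow for that choice.

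Sequencing depth was similar inside and outside the Pmch-rich strips, with medians of 3888 and 4199 UMIs per spot. None of the other neuropeptide genes had an interval above 1 there. Cck was at 11.2 CPM in the Pmch-rich strips and at 21.9 CPM elsewhere (ratio 0.512, 0.251 to 0.939), and the intervals of the other 8 held 1, from 0.281 for Trh (0.00687 to 1.70) to 2.62 for Oxt (0.259 to 14.7). Among 10691 genes 8 (0.0748%) were at least 2-fold higher in the Pmch-rich strips. Named after their values were seen, they were Siae, Pcsk2os2, Thnsl1, Tmem41a, Fam217b, Mab21l2, Atxn1l and Alg3, with ratios from 2.05 to 2.48.

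The summed level of the 22 hypothalamic genes listed did not differ between Pmch-rich and other strips beyond counting error (374 and 369 CPM; ratio 1.02, 0.909 to 1.13). This sum rests largely on Arnt2, with 1355 of 3216 UMIs, followed by Lhx1 and Lhx9. Single genes of the list with few UMIs lay on both sides, named after their values were seen and with no share over all genes for their intervals. The transcription factors Fezf1 (6 and 10 UMIs; 4.72, 1.41 to 14.3) and Hmx3 (6 and 12 UMIs; 3.93, 1.21 to 11.3) were higher in the Pmch-rich strips, and Sox14 was lower (4 and 96 UMIs; 0.328, 0.0875 to 0.866). Summed over lists, genes of other tissues were lower in the Pmch-rich strips: the pituitary list stood at 0.512 (0.419 to 0.619), fibroblast genes at 0.599 (0.561 to 0.639), epithelial genes at 0.600 (0.514 to 0.697) and skeletal muscle genes at 0.692 (0.671 to 0.713). The pituitary sum rests largely on Pomc (0.482, 0.353 to 0.643) and Gh (0.362, 0.237 to 0.533). Cga was at 1.11 (0.640 to 1.83), Tshb had 0 and 54 UMIs, and Lhx3, with 4 and 2 UMIs, was at 15.7 (2.25 to 174). The 12 pan-neuronal genes, among them Meg3 and Map2, were at 1.10 (1.08 to 1.12). Interneuron genes, led by Erbb4, Sox6 and Gad2, were at 1.16 (1.10 to 1.23), striatal genes at 0.899 (0.848 to 0.953) and pallial genes at 0.820 (0.736 to 0.912). Of the spots in the Pmch-rich strips 0.81% belonged to the muscle and bone region described below, against 18.7% of the others. What part this had in these ratios was not tested.

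The 5 genes whose level followed Pmch most closely over the 48 second-segment strips were Tmem56, Zcchc12, Ddx25, Kcnab2 and Ccdc138, with Pearson correlations between 0.51 and 0.55. The points share 1 library and few UMIs, and over first-segment strips a different set came first (Ubap1l, Adamts16, Asic4, Gpr162 and Tcerg1l, 0.46 to 0.53), so these are not read further.

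**Figure D2:**
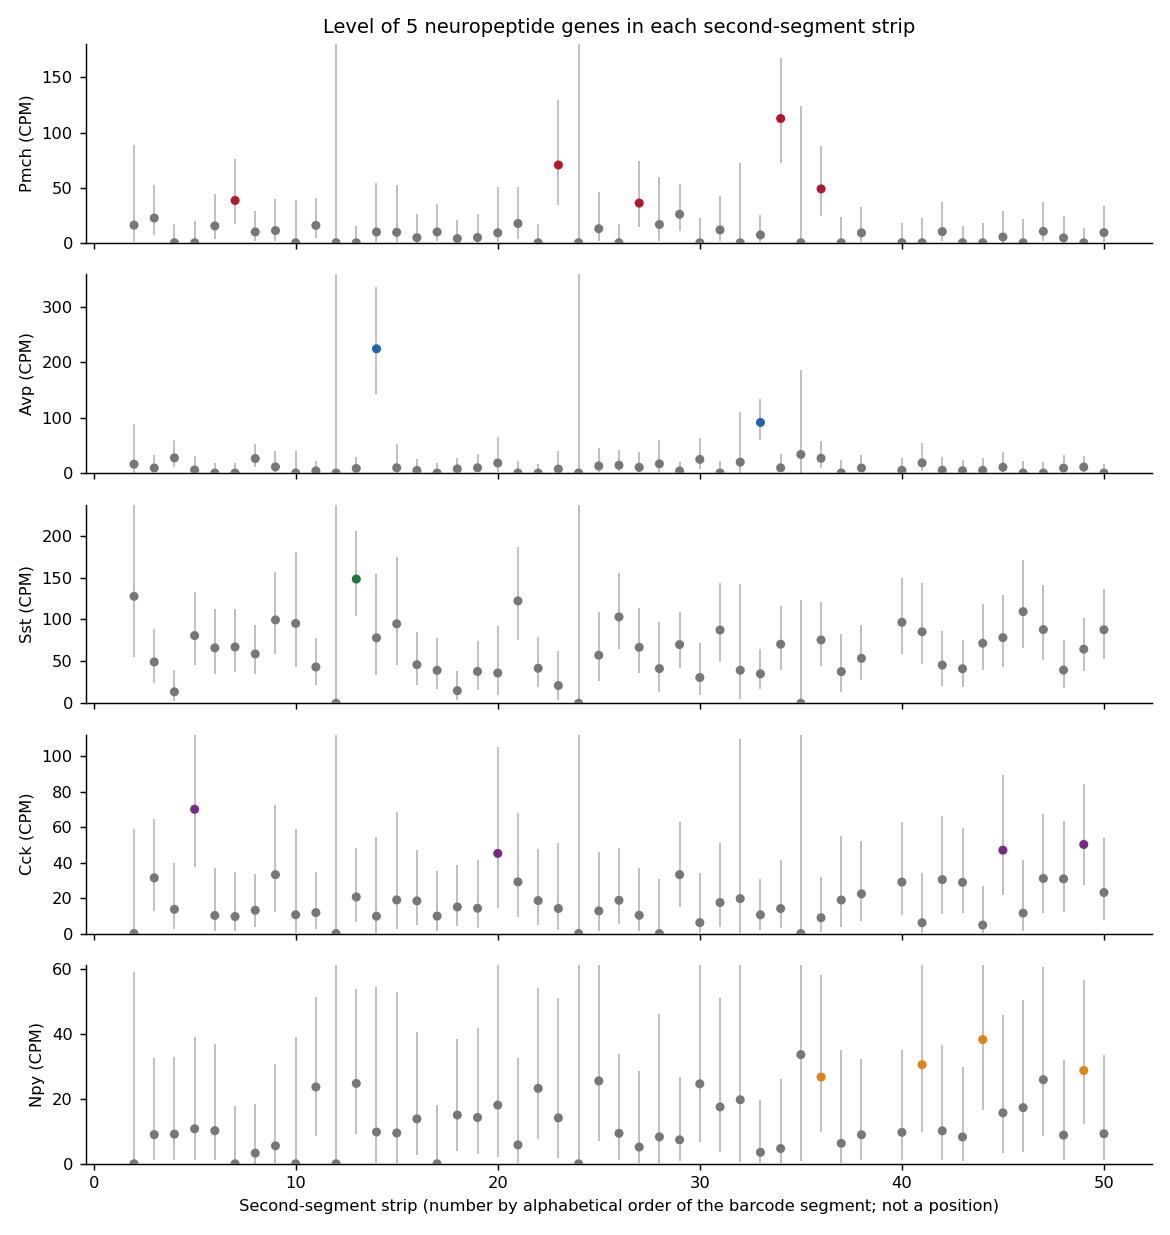
Level of Pmch, Avp, Sst, Cck and Npy in CPM in each of the 48 second-segment strips with kept spots, with 95% Poisson intervals (cut at the top of a panel where they exceed it); coloured points are strips called rich in the gene. Pmch peaks in strip 34 at 113 CPM and Avp in strip 14 at 224 CPM and strip 33 at 91.4 CPM, while Sst, Cck and Npy vary less.

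Pmch is annotated on chromosome 10 (88091072 to 88092375, plus strand, GRCm38). Its 3′ part overlaps Parpbp on the opposite strand by 944 bp, and no source used here says whether counting used the strand, so reads from the shared stretch are uncertain. Parpbp itself had 53 UMIs, and its level was the same in Pmch-rich strips as elsewhere within counting error (6.10 and 6.08 CPM; ratio 1.004, 0.351 to 2.35).

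Avp was concentrated in only 2 second-segment strips, and these 2 differed in the other genes they held. Over second-segment strips its level ran from 0 to 224 CPM with a median of 8.52. Strip 14 held 23 Avp UMIs in 14 of its 37 spots (224 CPM, 142 to 337) and strip 33 held 26 in 16 of its 49 spots (91.4 CPM, 59.7 to 134), 11 of them in the single spot named above. No other second-segment strip was rich in Avp. Both strips were picked on these Avp counts, and the Avp intervals in them, here and below, do not allow for that choice. The 2 strips had 49 of 121 Avp UMIs (40.5%) and 4.44% of all UMIs. Without both strips the excess variance of Avp over second-segment strips was 0.316, against 2.33 without strip 14 alone and 2.30 without strip 33 alone.

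Strip 14 had the highest levels of Gh and Cga among the second-segment strips. Gh, growth hormone, stood at 1298 CPM there, 23.3 times the other spots (19.1 to 28.3). Cga, the common subunit of the glycoprotein hormones, was 27.8 times higher (18.49 to 40.8) and Pomc, the corticotropin and melanotropin precursor, 8.86 times (6.96 to 11.2). Avp in strip 14 was 19.7 times the level of other spots (11.9 to 31.3). Epithelial genes were not higher in strip 14 beyond counting error (0.809, 0.522 to 1.20), nor were hypothalamic genes (1.11, 0.7997 to 1.51). The spot with the most Gh among those with 3 or more Avp UMIs had 39 Gh, 9 Cga and 3 Avp UMIs.

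Not every strip rich in pituitary hormones was rich in Avp. In strip 25 Gh had an interval that overlapped that of strip 14 (22.3 times the rest, 18.6 to 26.6) and Cga stood at 8.22 times (4.79 to 13.4), with 2 Avp UMIs (12.7 CPM; ratio 0.916, 0.110 to 3.38). Strip 37, the richest in Pomc (1724 CPM, 25.6 times, 22.1 to 29.7), had no Avp UMI in 48 spots, where 0 UMIs allow a ratio of up to 1.67. The intervals of Avp in strips 25 and 37 did not overlap that of strip 14.

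Strip 33 carried epithelial genes instead. Wfdc2, a secreted protein of airway and glandular epithelia, was 16.7 times the level of other spots (13.8 to 20.1), the mucin Muc5b 24.7 times (18.7 to 32.5) and the keratin Krt8 11.1 times (8.73 to 14.01). Avp was 8.11 times higher (5.04 to 12.6). Gh was lower in strip 33 than elsewhere (0.541, 0.269 to 0.976) and pan-neuronal genes stood at 0.772 (0.741 to 0.803). The summed level of the 12 epithelial genes, led by Bpifa1, Wfdc2 and Krt18, was 2464 CPM in strip 33 and 228 CPM elsewhere. The skeletal muscle list stood at 2.07 (2.003 to 2.14). What part RNA of these tissues had in the Avp counts was not tested.

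**Figure D3:**
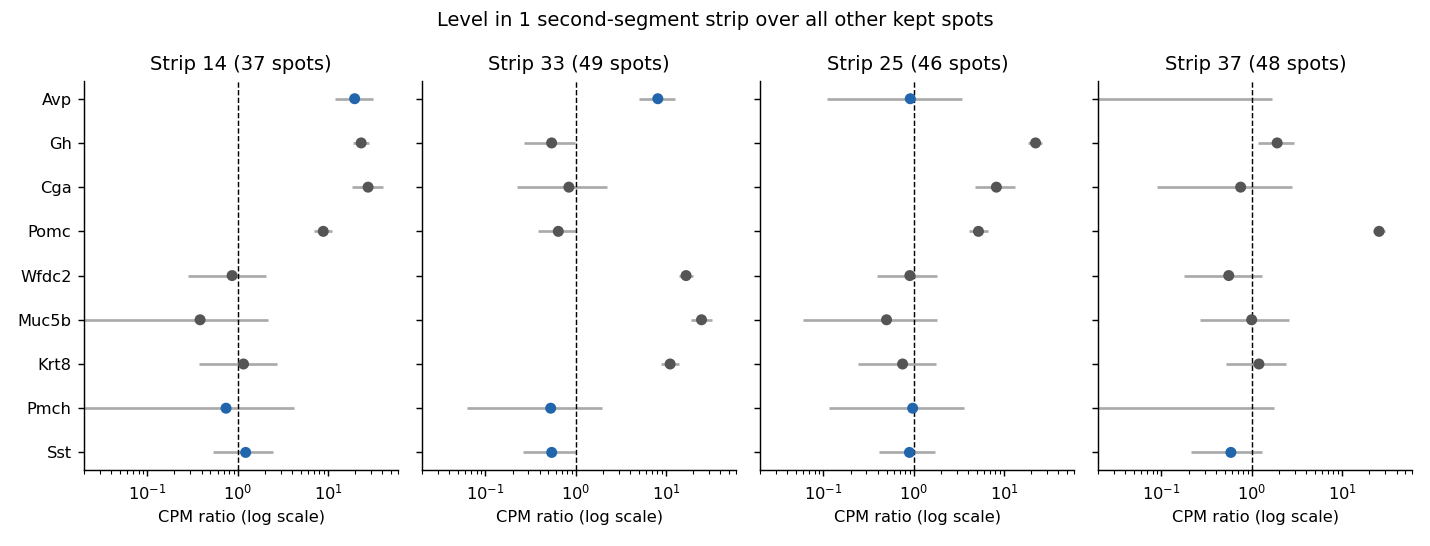
CPM of 9 genes in each of 4 second-segment strips over all other kept spots (log scale), with 95% conditional binomial intervals; blue points are neuropeptide genes studied here, grey points pituitary hormones and epithelial genes, and a line with no point had 0 UMIs in the strip (intervals are cut at 0.02). Avp is high in strip 14 with Gh and Cga (19.7 times) and in strip 33 with Wfdc2 and Muc5b (8.11 times), but not in strip 25, where Gh is 22.3 times higher.

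Of 10691 genes with at least 100 UMIs, 420 (3.93%) were at least 2-fold higher in the 2 Avp-rich strips. All 3 pituitary genes with at least 100 UMIs (Pomc, Gh and Cga) and all 7 epithelial genes with at least 100 UMIs were among them. Of the 7 hypothalamic genes with at least 100 UMIs 1 was, Hdc (29 and 81 UMIs; 7.70, 4.86 to 11.9), which encodes histidine decarboxylase. The transcription factor Six6, under 100 UMIs, also had an interval above 1 (3 and 6 UMIs; 10.8, 1.74 to 50.4). Six6 was named after its values were seen, with no share over all genes for such an interval. The intervals of Lhx1 (0.322, 0.104 to 0.759) and Lhx9 (0.469, 0.187 to 0.978) lay below 1. Of the 29 Hdc UMIs in the Avp-rich strips 28 lay in strip 33, where epithelial genes were high and pan-neuronal genes low. Hdc was itself rich in strip 33 and strip 18 (15 UMIs), both rich in Wfdc2. The hypothalamic list as a whole stood at 0.994 (0.834 to 1.18), and of the other 9 neuropeptide genes none had an interval above 1 in these strips. The median depth was 4345 UMIs per spot in the Avp-rich strips and 4149 elsewhere, and the median number of ATAC fragments 32000 and 21457. The 2 strips differed in depth: strip 14 had 102459 UMIs in 37 spots and strip 33 had 284439 in 49.

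Cga was also the gene whose level followed Avp most closely over the 48 second-segment strips (Pearson r = 0.86), ahead of Mgst1 (0.70), Gh (0.69), Ttll3 (0.67) and Gm13483 (0.66). This rested on strip 14: without it the correlation with Cga was 0.097 and that with Gh 0.049, while Mgst1 stayed at 0.48 and Ttll3 at 0.49. Over first-segment strips the closest 5 genes were others (Pex5, Map7, Pdp2, Fabp7 and Paip1, 0.49 to 0.52).

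Oxt, the neighbour of Avp on chromosome 2, had 8 UMIs in 8 spots and 6 second-segment strips, none of them strip 14 or 33. Strips 36 and 49 held 2 each. Avp UMIs were also found in 3 of the 8 spots, where the depth of the spots and the level of both genes gave 0.546 (ratio 5.49, 1.13 to 16.05). This was the only pair of the 45 whose interval lay above 1, and it rests on 3 spots.

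Gal and Trh had too few UMIs for rich strips, and none of their strips reached 5 UMIs. Gal reached 4 UMIs in its richest second-segment strip and Trh 3. Trh had 3 of its 29 UMIs in the Pomc-rich strip 37 (18.9 CPM; ratio 6.21, 1.20 to 20.3), in 2 spots. One of these held 2 Trh UMIs beside 3 of Pomc. No share over all genes was computed for such an interval, so nothing is read from it.

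Sst, Cck and Npy, known from cortical neurons, had less excess variance over second-segment strips than Pmch and Avp. Sst was found in 45 of 48 second-segment strips, at 0 to 148 CPM with a median of 61.7, and in all 50 first-segment strips, at 23.4 to 162 CPM with a median of 64.3. Strip 13 was its 1 rich second-segment strip, with 36 UMIs (148 CPM, 104 to 205; 2.32 times the library-wide level).

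Among the genes that followed Sst most closely over second-segment strips were Dock3 (r = 0.69), the bicarbonate exchanger Slc4a3 (0.64), the GABA receptor subunit Gabra3 (0.64) and B4galt6 (0.63). Without the strip richest in Sst these correlations over strips ranged from 0.61 to 0.69. Over first-segment strips other genes came first (Tmem115, Rbm24, Pfdn1, Asrgl1 and Asnsd1, 0.54 to 0.58), and these fell to between 0.26 and 0.47 without the richest strip.

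Cck had 4 rich second-segment strips. Strip 5 held 13 UMIs (70.0 CPM, 37.3 to 120) and strip 49 held 14 (50.2 CPM, 27.4 to 84.2), followed by strips 45 and 20 with 9 and 5. Together they had 41 of 180 Cck UMIs (22.8%). Npy had 4 rich second-segment strips with 5 to 8 UMIs each (26.7 to 38.2 CPM), among them strip 49, also rich in Cck, and strip 36, also rich in Pmch. Neither Cck nor Npy was called uneven over these strips. Counts this low can pass the rule for a rich strip by counting error, so these strips and their overlaps are not read further. The genes closest to Cck and Npy over second-segment strips, Aggf1 (r = 0.63) and Tsr2 (0.56), had 217 and 108 UMIs, and correlations of this size in so few counts are not read further.

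Penk had 2 rich second-segment strips, 16 and 40, with 5 UMIs each (23.03 CPM, 7.48 to 53.7, and 24.2 CPM, 7.84 to 56.4). Strip 16 was also the richest in Car3, a muscle and fat enzyme (159 UMIs). Penk overlaps A830012C17Rik on the opposite strand by 499 bp, so its counts carry the same doubt as those of Pmch. Tac1, with 26 UMIs in as many spots, had no rich strip and at most 3 UMIs in any.

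Clustering the spots without the 10 genes and without any listed gene gave 11 clusters. A cluster was named as a region by its leading gene when that gene was at least 3-fold higher than in other spots, which held for 2 of them. The Car3 region (328 spots) was led by Car3, Col1a1, Cox8b, Ibsp and Myh3, genes of muscle, bone and connective tissue, and the Wfdc2 region (49 spots) by Wfdc2, Olfm5, Lypd2 and Muc5b. Of the 49 spots of the Wfdc2 region 34 lay in strip 33. The other 1615 spots were left unnamed. The pituitary genes had been kept out of the clustering and made no region of their own.

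Pmch was lower in the Car3 region than in all other spots, with 8 and 106 UMIs (5.12 and 14.8 CPM; ratio 0.346, 0.145 to 0.706). Sst stood at 37.1 and 69.7 CPM (0.533, 0.399 to 0.701) and Cck at 12.8 and 22.4 CPM (0.572, 0.340 to 0.914). In spots with at least 2000 UMIs the interval of Cck held 1 (0.662, 0.398 to 1.05). Of genes with at least 100 UMIs 0.44% were at least 2-fold lower in the Car3 region. Among the neuropeptide genes Pmch and Gal (0.491, 0.0954 to 1.59) passed that size. Gal had 31 UMIs, too few to be covered by that share, and an interval that held 1. None of the 10 genes was 2-fold higher there, where 2.38% of genes with at least 100 UMIs were. Avp leaned the other way (1.58, 1.01 to 2.40), also with strips 14 and 33 left out of both sides (21 and 51 UMIs; 1.97, 1.13 to 3.33), but at Leiden resolution 2.0 its interval held 1 (1.42, 0.860 to 2.25). Gh (2.62, 2.21 to 3.09) and Pomc (2.43, 2.10 to 2.80) were also higher in the Car3 region, and their part in the Avp ratio was not tested. The intervals of Npy, Tac1, Penk, Trh and Oxt held 1.

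In the Wfdc2 region Avp was the only one of the 10 genes above 2-fold, with 23 UMIs in 13 of 49 spots against 98 elsewhere (77.7 and 11.6 CPM; 6.67, 4.04 to 10.6). Of genes with at least 100 UMIs 4.95% were at least 2-fold higher there. Without the spot of 11 UMIs the Avp ratio was 3.55 (1.77 to 6.49). Parts of both regions were set against the other spots outside strips 14 and 33. The 34 spots of the Wfdc2 region inside strip 33 had 22 Avp UMIs (12.3 times, 7.24 to 20), 11 of them in 1 spot. The 15 Car3-region spots inside strip 33 had 4 (6.01, 1.59 to 16.1). The 15 spots of the Wfdc2 region outside strip 33 had 1 (1.31, 0.0327 to 7.53). These 3 intervals overlap. Npy (0.247), Cck (0.482), Penk (0.490) and Oxt (0 of 8 UMIs) were at or beyond 2-fold lower, but all 4 intervals held 1. Of genes with at least 100 UMIs 7.5% were at least 2-fold lower, a share that does not cover Penk and Oxt, which had fewer. The separation of this region depended on the clustering: under 3 of 5 alternatives it was joined to most of the Car3 region in 1 region of 335 to 363 spots, where Avp was 2.75 to 3.82 times higher.

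Within strip 14 Avp was high in and outside the Car3 region. The 23 spots outside any region had 17 Avp UMIs (299 CPM) and the 14 Car3-region spots 6 (132 CPM), against 8.65 CPM in the spots of all other strips but 33.

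**Figure D4:**
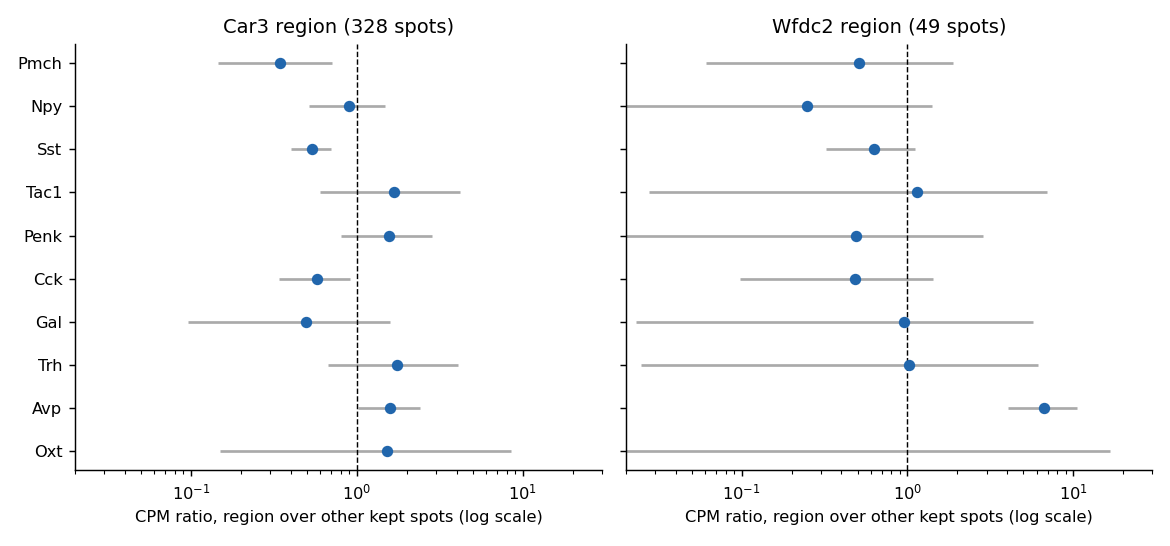
CPM of each neuropeptide gene in the Car3 region and in the Wfdc2 region over all other kept spots (log scale) with 95% conditional binomial intervals; the dashed line is 1, and Oxt had 0 UMIs in the Wfdc2 region. Pmch (0.346) and Sst (0.533) lie below 1 in the Car3 region, as does Cck (0.572), whose interval held 1 in spots with at least 2000 UMIs, and Avp (6.67) lies above 1 in the Wfdc2 region.

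Shares of spots with a UMI were lower in the Car3 region than in the unnamed spots for Pmch, Sst, Cck and Gal, as the levels were. The intervals of the shares overlapped for Pmch, Cck and Gal, but not for Sst. The Car3 region, led by genes of muscle, bone and connective tissue, was used for comparison, and whether its counts are background was not tested. Pmch was found in 2.44% of its spots (8 of 328, 1.06% to 4.75%) and in 5.33% of the unnamed spots (86 of 1615, 4.28% to 6.53%). The median depths were 4385 and 4064 UMIs. At 2000 UMIs per spot the expected shares were 1.01% and 2.80%. Sst was found in 14.6% and 24.0% of these spots (6.61% and 13.1% at 2000 UMIs) and Cck in 6.10% and 8.73% (2.60% and 4.33%). Avp was found in 26.5% of the spots of the Wfdc2 region (14.9% to 41.1%; 11.6% at 2000 UMIs), 8.23% of the Car3 region (3.52%) and 3.53% of the unnamed spots (1.54%). For Npy, Tac1, Penk, Trh, Avp and Oxt the share in the unnamed spots was below that of the Car3 region (5.33% and 5.79% for Npy). These shares therefore do not show expression in the unnamed spots above that of the Car3 region.

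Among the clusters left unnamed, the one with 346 spots had Pmch as its leading gene although Pmch took no part in making it. It held 36 of the 114 Pmch UMIs (30.4 against 10.4 CPM; 2.94, 1.92 to 4.41) at a median depth of 3279 UMIs per spot. With the pseudocount of the naming rule the fold was 1.66, under the 3-fold needed for a name, and Mab21l2 and Alg3 were also among its 5 leading genes. No other neuropeptide gene had an interval away from 1 in this cluster.

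Spots that held 2 of the genes were set against the number that the depth of each spot and the library-wide level of both genes give. At least 2 of them were found together in 145 spots, at most 4 in 1 spot. Of 45 pairs 39 had intervals that held 1, Avp with Oxt lay above, and 5 lay below. Other gene pairs were not counted in this way, so these numbers are not read as particular to the 10 genes. Of the 45 ratios 33 lay below 1. The expected numbers spread the UMIs of a gene singly by depth, and UMIs that share a spot make them too high. Ratios below 1 are therefore not read as genes kept apart. Sst and Avp shared 18 spots where 31.9 were expected (0.565, 0.335 to 0.893), Sst and Cck 33 where 46.5 were expected (0.709, 0.488 to 0.996; the interval reached 1.006 in spots with at least 2000 UMIs), and Pmch and Cck 3 where 10.97 were expected (0.273, 0.0564 to 0.799). Sst and Gal shared 1 spot where 8.41 were expected (0.119, 0.00301 to 0.663), and Pmch and Penk 0 where 3.74 were expected (at most 0.986). Pmch and Avp, the 2 unevenly spread genes, shared 8 spots where 7.52 were expected (1.06, 0.459 to 2.10). Over second-segment strips the 45 pairwise correlations of level had a median of -0.02 and ran from -0.24 to 0.44.

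The machinery that makes and stores peptides was measured with more UMIs than the peptides. All 20 processing enzymes and granule proteins had UMIs and 18 had at least 100, led by Pcsk1n, Cadps and Ptprn2 with 6105, 4433 and 4397. Of the 18, 0 were uneven over either segment, where 0.402% (first) and 4.37% (second) of genes with at least 100 UMIs were. The count thus says nothing particular to them. The convertase Pcsk2 had 1904 UMIs, carboxypeptidase E (Cpe) 3051 and the amidating enzyme Pam 1528, while the convertase Pcsk1 had 20. In the Pmch-rich strips the list stood at 1.09 times the other strips (1.06 to 1.13) and in the Avp-rich strips at 0.782 (0.734 to 0.832).

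Of 27 receptors of the 10 peptides, 25 had UMIs and 1 had at least 100, the opioid receptor Oprm1 (194), which binds enkephalin. The melanin-concentrating hormone receptor Mchr1 had 71 UMIs, Npy1r 99, the substance P receptor Tacr1 93, the oxytocin receptor Oxtr 33 and the vasopressin receptor Avpr1a 7. Trhr2 and Avpr1b had 0, and 3 counts, taken as the limit that a count of 0 allows, are 0.344 CPM. Receptor levels summed over the list were not detectably different in Pmch-rich (0.842, 0.658 to 1.07) or Avp-rich strips (0.977, 0.675 to 1.37).

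Among 35 other neuropeptide genes 32 had UMIs and 4 had at least 100: Pomc (849), Nucb2 (257), Pnoc (184) and Agrp (167), the last from hypothalamic neurons that also make Npy. Of these 4 only Pomc was uneven, at 0.816 over first-segment and 4.65 over second-segment strips. Among genes with at least 100 UMIs 0.402% (first) and 4.37% (second) were. Crh, Kiss1 and Rln3 had 0 UMIs. Hcrt, the orexin precursor of the lateral hypothalamus where Pmch neurons lie, had 10 UMIs in 10 spots.

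Promoters of all 10 genes had fewer fragments than the median protein-coding gene, and that of Pmch had the fewest. In the window reaching 1 kb either way from the transcription start site (TSS), the fragments numbered 23 at Pmch (14.6 to 34.5), 93 at Avp, 65 at Oxt, 87 at Trh, 105 at Gal, 70 at Sst, 110 at Npy, 87 at Cck, 122 at Penk and 93 at Tac1. The median of 21702 protein-coding genes was 159 and the lowest quartile 51. The 10 genes lay between the 11.9th percentile for Pmch and the 43.1st for Penk. Coding genes with 20 to 1000 UMIs had a median of 249 fragments. The window of Penk also holds the TSS of A830012C17Rik, so its fragments cannot be given to 1 gene. Over the 250 bases printed above there were 7 fragments for Pmch, 19 for Avp and 21 for Sst.

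Npy, Cck and Trh, 3 of the 10, had a peak of the matrix within 1 kb of the TSS, beside 62.7% of 21702 protein-coding genes. Npy had 2, at 49821903 to 49822827 and 49823348 to 49824224 on chromosome 6, with 137 and 63 cut sites over kept spots, and the first covered its start. Trh had 1 over its start (92244040 to 92244851 on chromosome 6, 104 cut sites) and Cck 1 inside the gene (121493986 to 121494862 on chromosome 9, 142 cut sites), 832 bases from its start. The median peak had 105 cut sites. The nearest peak to the Pmch start lay 35994 bases away and to the Avp start 18416.

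**Figure D5:**
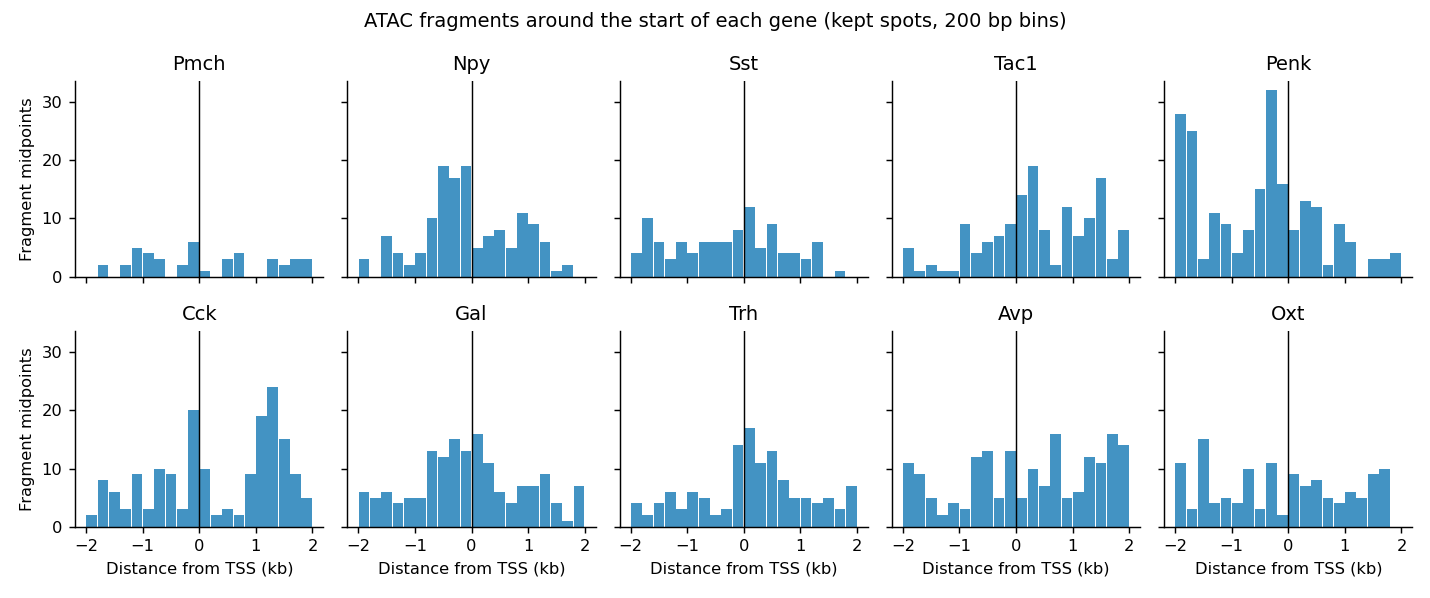
Number of ATAC fragment midpoints in kept spots (vertical axis) in 200 bp bins from 2 kb before to 2 kb after the TSS of each neuropeptide gene (horizontal axis, kb, in the direction of transcription). Penk has up to 32 midpoints in a bin and Npy up to 19, both before the start. Cck has up to 24 and Tac1 up to 19 in a bin after the start, while no bin of Pmch has more than 6.

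Fragments at the promoter of a gene were compared between strips rich in its RNA and the other strips, and too few were found to show a difference. In the Pmch-rich second-segment strips 2 fragments lay at the Pmch promoter and 21 elsewhere (3.08 and 3.82 per 1000000 promoter fragments; ratio 0.807, 0.0917 to 3.30). For Avp there were 4 and 89 (0.689, 0.184 to 1.83). The ratios of Npy (1.12), Sst (0.772), Penk (1.14) and Cck (0.912) also had intervals that held 1. The width of these intervals comes from the 23 to 122 fragments per gene. Spots with a UMI of a gene gave the same picture: the ratio at the own promoter was 1.85 for Avp (0.857 to 3.58), 1.39 for Npy (0.617 to 2.74) and 0.779 for Sst (0.391 to 1.44), and the intervals of all 10 genes held 1.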

How the data were processed

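The authors deposited raw counts, UMI counts per gene and cut-site counts per peak, and fragments with a count of read pairs each for 2500 barcodes. Per the file headers both were made with cellranger-arc 2.0.1 on mm10 (GRCm38); the submitters' processing notes also name Seurat 4.0, and how barcodes were chosen is not given in the sources used here. The other deposited values used, start and end coordinates of features, were taken as given. The 10 genes and all lists were chosen with earlier results of these data known. Spots were dropped below 500 or above 6000 genes, or above 20% mitochondrial UMIs. Regions came from scanpy 1.11.5 (2000 variable genes, 30 principal components, 15 neighbours, Leiden resolution 1.0, seed 0) without the 10 genes and the listed genes; leading genes, of 20 or more UMIs, had the highest fold after adding 20 CPM to both sides. TSSs came from GENCODE. Intervals at 95% are exact Poisson for counts, Clopper-Pearson for shares and conditional binomial for ratios (SciPy 1.17.1); shares at 2000 UMIs per spot are hypergeometric expectations over spots of that depth. PCR and barcode errors are not covered. With 1 library per assay no test was made. The genes named are the 10, for those with at least 100 UMIs the 5 most alike over each set of strips, the 3 with most UMIs in a list, and receptors or enzymes at 0 UMIs; others are named where a result turns on them. Some genes that this rule names are not reported here. The statistics were tested on simulated data. Alternatives covered the spot filter, UMI total, strips, clustering, window and fragment unit.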

Additional observations from a re-analysis of the deposited data

Results flagged for a closer look

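The 507 barcodes of the fragment data that are not in the matrix held 83 fragments at the 10 promoters. Per 1000000 promoter fragments this was 163, against 139 in kept spots (ratio 1.17, 95% interval 0.925 to 1.47). Gal had 20 of these fragments (39.3 against 17.1; 2.30, 1.35 to 3.74), and the intervals of the other 9 held 1. The share of all promoters with such an interval was not computed, so nothing particular to Gal is read from it.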

How the results depend on the processing

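Of 288 values recomputed under alternatives for 67 results, 262 were counted as kept, and no called value changed direction. Kept meant on the same side of a threshold, within the interval reported, or within a set margin for counts and percentiles. The number of genes with rich strips in the promoter comparison was always counted as kept. Alternatives that merged the Wfdc2 region gave it no value, so these are not among the 288. The summed level of the 10 genes was 151 CPM with Gm42418 and mitochondrial genes left out of the UMI total, against 142. The count of genes called uneven over first-segment strips fell from 3 to 0 without the richest strip of each gene, to 0 without its richest spot and to 1 (Pmch, 0.333) without the spots of both regions; with no spot filter Avp was just under the threshold (0.249); over second-segment strips it was 2 under all 7 alternatives run. Leaving out the richest spot, and the spots of both regions, was chosen after seeing the data, as was leaving out the 2 Avp-rich strips. The count of genes past 2-fold with an interval away from 1 in the Car3 region was 1 (Pmch) and became 2, Avp added, with no spot filter (Avp 2.75), at Leiden resolution 0.5 (3.82) and with seed 1 (2.93); in each of these the region took in 47 or 48 of the 49 spots of the Wfdc2 region, which then had no value of its own. At Leiden resolution 2.0 the Wfdc2 region had 2 such genes in place of 1, Npy with 0 UMIs added. Intervals came to hold 1 for Cck in the Car3 region (0.662) and for Sst with Cck in single spots (0.716) in spots with at least 2000 UMIs, and for Avp in the Car3 region at Leiden resolution 2.0 (1.42). Without both regions Avp was at 9.78 CPM and Sst at 70.9 CPM. With a window of 500 bp either way no fragment lay at the Pmch promoter in its rich strips. The median percentile of the 10 promoters was between 35.7 and 36.6 with other windows, insertions or all barcodes. At a threshold of 3 times, Pmch kept 3 rich second-segment strips and 2 rich first-segment strips, and Avp 1 rich first-segment strip. No paired analysis was possible because each assay has 1 library. The number of UMIs per gene, 8 to 556, is a limit on depth.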
